A study of Mus musculus with 6 samples.

Results

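The genes described here are 30 genes of cholesterol and fatty acid synthesis, chosen by symbol, and all 30 were found among the 22956 genes of the deposited count table. They comprise 19 enzymes listed under the sterol branch, Ggps1 among them, and 5 genes of the fatty acid branch. The others are 5 genes of the sensor system that sets the activity of both branches, and the sterol carrier gene Stard4. RNA was sequenced from the aortas of C57B6 mice aged 30 weeks that had received a western diet for 20 weeks. The samples are labelled as aortic smooth muscle cells, and the protocol describes flash freezing followed by Trizol extraction, with no sorting of cells named. The miR-21 knockout group held 3 libraries with the genotype miR-21fl/flmTmG/Myh11ERT2, that is a floxed miR-21 gene that an inducible Cre under the Myh11 promoter can remove from smooth muscle. The WT group held 3 libraries with the genotype WT/mTmG/ Myh11ERT2, so the Cre driver and the mTmG colour reporter were present in both groups. No label says how or when the Cre was induced, whether a library came from 1 animal or from a pool, or how much of the gene was deleted, and the deletion was not checked here. Cells in which Myh11 is not active keep the floxed gene whole.

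Animal cells build cholesterol from acetyl-CoA through mevalonate, isoprenoid and squalene intermediates, and they build fatty acids from the same acetyl-CoA. Both routes are driven by the SREBP transcription factors, which stay in the endoplasmic reticulum bound to SCAP and the INSIG proteins while sterols are plentiful and move to the nucleus when sterols run low. SREBP-2, from Srebf2, acts mainly on sterol genes, and SREBP-1c, from Srebf1, acts mainly on fatty acid genes and is also raised by the sterol-sensing LXR receptors. Cholesterol taken up from lipoproteins is known to turn the sterol genes down. The comparison asked here was whether the messages of either branch differed between the aortas of the knockout group and those of the WT group.

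miR-21 acts through its seed, and its mature sequence is shown first because its match was searched for in every member (mouse miR-21a-5p, RefSeq, GRCm38.p6, chr11:86584120-86584141, minus strand). The capitals mark the seed, bases 2 to 8.
mmu-miR-21a-5p: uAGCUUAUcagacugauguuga
The match to that seed, ATAAGCT, was present in the 3′ untranslated region of 1 of the 30 members, against 963 of 13119 tested genes (7.34%). The single holder was Sc5d, the lathosterol desaturase gene near the end of cholesterol synthesis, on chromosome 9. Its site begins at base 264 of the untranslated region and is shown with 10 bases to each side and the match in capitals.
Sc5d: acgatagaaaATAAGCTactcaagaag
Sc5d had 32.4, 34.2 and 34.5 CPM (estimated counts scaled to 1e6 per library with TMM factors) in knockout 1, 2 and 3, against 33.8, 35.1 and 30.2 CPM in WT 1, 2 and 3. On the log2 scale the knockout stood 0.03 ± 0.08 above WT (SE), and the 95% interval of this fold change ran from -0.15 to 0.21. The groups overlapped.

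SREBPs bind a sterol regulatory element beside the CCAAT box, the site of their partner factor NF-Y, so the 300 bases around each start (250 before and 50 after, RefSeq, GRCm38.p6) were searched on both strands. Promoters were listed for 24 members. CCAAT was present in 21 of these 24, among them 15 of 16 sterol enzymes and 2 of 3 fatty acid genes, against 42.9% of the 10854 tested genes with a listed promoter. GGGCGG, the core of the Sp1 site, was present in 20 of 24 members, against 67.7% of tested genes. The loose form of the sterol regulatory element, TCACNCCAC, was present in 1 member, Hmgcs1, against 1.45% of tested genes, and a stricter form of the element in 0 of 24. A match is a run of letters and not a measured binding site.

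The promoters of Hmgcs1, of Lss and of Fasn are printed because these genes stand for the entry to the sterol branch, for the sterol enzyme with the smallest p and for the fatty acid synthase. Capitals mark CCAAT on either strand (read as ATTGG on the reverse) and, in Hmgcs1, the loose sterol element that begins 137 bases before the start (chr13:119690101-119690400, plus strand, chr10:76531355-76531654, plus strand, and chr11:120824498-120824797, minus strand).
Hmgcs1: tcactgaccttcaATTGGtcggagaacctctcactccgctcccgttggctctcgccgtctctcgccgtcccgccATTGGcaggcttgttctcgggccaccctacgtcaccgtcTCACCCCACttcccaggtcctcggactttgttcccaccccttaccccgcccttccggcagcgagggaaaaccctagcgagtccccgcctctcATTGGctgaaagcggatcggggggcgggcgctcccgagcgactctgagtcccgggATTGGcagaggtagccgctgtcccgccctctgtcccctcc
Lss: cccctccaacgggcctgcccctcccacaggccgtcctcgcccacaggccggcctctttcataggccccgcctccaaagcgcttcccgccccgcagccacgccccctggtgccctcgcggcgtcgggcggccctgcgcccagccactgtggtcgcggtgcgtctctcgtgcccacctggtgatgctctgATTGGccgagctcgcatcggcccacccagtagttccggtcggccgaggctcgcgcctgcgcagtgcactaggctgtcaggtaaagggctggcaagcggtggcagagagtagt
Fasn: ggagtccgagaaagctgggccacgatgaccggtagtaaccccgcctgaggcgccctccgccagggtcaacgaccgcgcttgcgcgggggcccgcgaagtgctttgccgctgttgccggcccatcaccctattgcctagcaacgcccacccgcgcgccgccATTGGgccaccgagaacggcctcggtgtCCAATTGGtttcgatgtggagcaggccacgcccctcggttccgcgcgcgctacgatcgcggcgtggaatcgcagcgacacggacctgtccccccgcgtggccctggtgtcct
In Fasn a forward and a reverse CCAAT overlap. No group difference can be read from these sequences, and they are given as the regulatory context of the values that follow.

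Library totals ran from 37787465 to 154384307 estimated counts, and the lowest count of any member in any library was 79. Smooth muscle markers were abundant throughout: the 8 fixed markers summed to 27816 to 36198 CPM in knockout libraries and to 23180 to 34826 CPM in WT libraries. The 6 fibroblast markers, led by Lum and Col1a1, summed to 2865 to 8756 CPM in knockout libraries and to 4703 to 9254 CPM in WT libraries, with knockout 1 and WT 1 the highest of their groups. The 10 macrophage markers summed to 7.61 to 35.0 CPM in knockout libraries and to 9.48 to 34.0 CPM in WT libraries. Of the 4 brown adipocyte markers, 2 were in the table. Ucp1 stood between 0 and 0.069 CPM in knockout libraries and between 0 and 0.074 CPM in WT libraries. Cidea had 4.08, 6.202 and 5.27 CPM in knockout 1, 2 and 3, against 3.56, 5.11 and 2.74 CPM in WT 1, 2 and 3, and its groups overlapped. Of the 10 adipocyte markers, 3 were in the table (Lipe, Plin4 and Fabp4), summing to 258 to 306 CPM in knockout libraries and to 228 to 246 CPM in WT libraries, sums that do not overlap. Plin4 carried that gap, with 213.3, 231.2 and 247.4 CPM in knockout libraries, against 171.6, 187.1 and 195.3 CPM in WT libraries. The difference in Plin4 did not pass edgeR's quasi-likelihood test after adjustment, in which 0% of the 16654 genes tested passed. Every knockout library also lay above every WT library for 6.48% of all genes. Lipe and Fabp4 overlapped between groups. The other 7 adipocyte markers were not analysed here, and the part of white or brown adipocytes in the values below was not tested. In such bulk samples, fewer cells of a type and less RNA per cell cannot be told apart.

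Fatty acid and sensor genes led the order of levels per length (CPM per kilobase of annotated exon). Scd2, the stearoyl-CoA desaturase of many non-hepatic tissues, was highest, with a level of 42.2 ± 4.38 in knockout aortas and 48.2 ± 5.23 in WT aortas (SD, n = 3 each). Srebf1 followed with 26.2 ± 2.22 in knockout aortas and 26.6 ± 0.935 in WT aortas, and Insig2 with 24.1 ± 0.624 in knockout aortas and 24.2 ± 1.02 in WT aortas. Srebf1 lay above Insig2 in each of the 6 libraries, while its knockout values spread over 24.45 to 28.73, so that in the knockout the difference was within the spread of Srebf1. Of the 19 genes listed as sterol enzymes the most abundant was Ggps1, at 15.6 ± 1.5 in both groups. It makes the geranylgeranyl chain used to anchor proteins in membranes, which is not a sterol. Hmgcs1 came next of the 19, at 12.3 ± 0.997 in knockout aortas and 11.5 ± 0.792 in WT aortas. Stard4 and Elovl6 were at the bottom of the order. The level of Elovl6 was 0.426 ± 0.0887 in knockout aortas and 0.661 ± 0.227 in WT aortas, near the 19.4th percentile of the 16608 tested genes with a known length, whose median was 3.53.

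**Figure D1:**
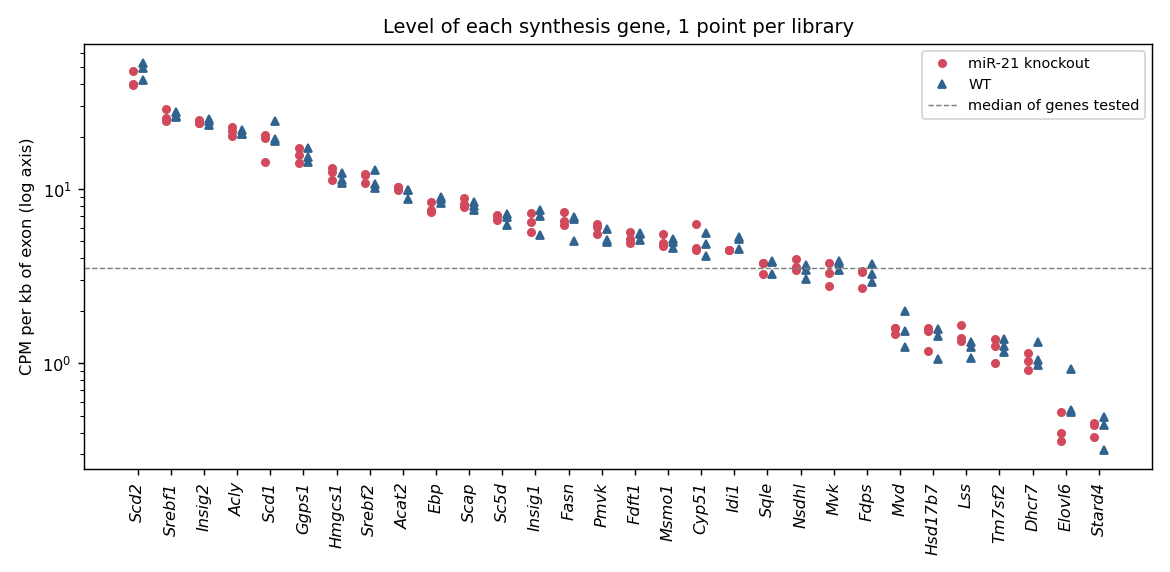
Level of each of the 30 genes in CPM per kilobase of annotated exon (log axis), with 1 point per library, knockout circles left of WT triangles, ordered by the mean of all 6 libraries. The dashed line is the median of tested genes (3.53), and the knockout and WT points of most genes lie over the same range, from Scd2 near 45.2 down to Stard4 near 0.422.

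No member passed the threshold for a difference between knockout and WT. All 30 genes passed the low-count filter, and 0 of 30 had an adjusted p under 0.05 in edgeR's quasi-likelihood test, as did 0% of the 16654 genes tested. At an unadjusted p under 0.05 the count of members was also 0, against 5.96% of all genes, and DESeq2 called 0 of 30 members at an adjusted p under 0.05, against 0.447% of the 16324 genes for which it gave an adjusted p. Log2 fold changes were above 0 for 14 members and below 0 for 16, with a median of -0.0038 beside -0.0022 over all genes. The 95% intervals of all 30 members included 0, and for 28 of 30 the interval lay wholly within a 1.5-fold change in either direction, Elovl6 and Scd1 being the exceptions. For 29 of 30 it lay within a 2-fold change, Elovl6 being the exception. The knockout libraries all lay above the WT libraries for 2 members, Lss and Acat2, and all below for 1, Idi1, against 6.48% and 5.6% of all genes. No label says that the libraries came from separate animals, so the p-values measure the spread between these samples, which may be technical.

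**Figure D2:**
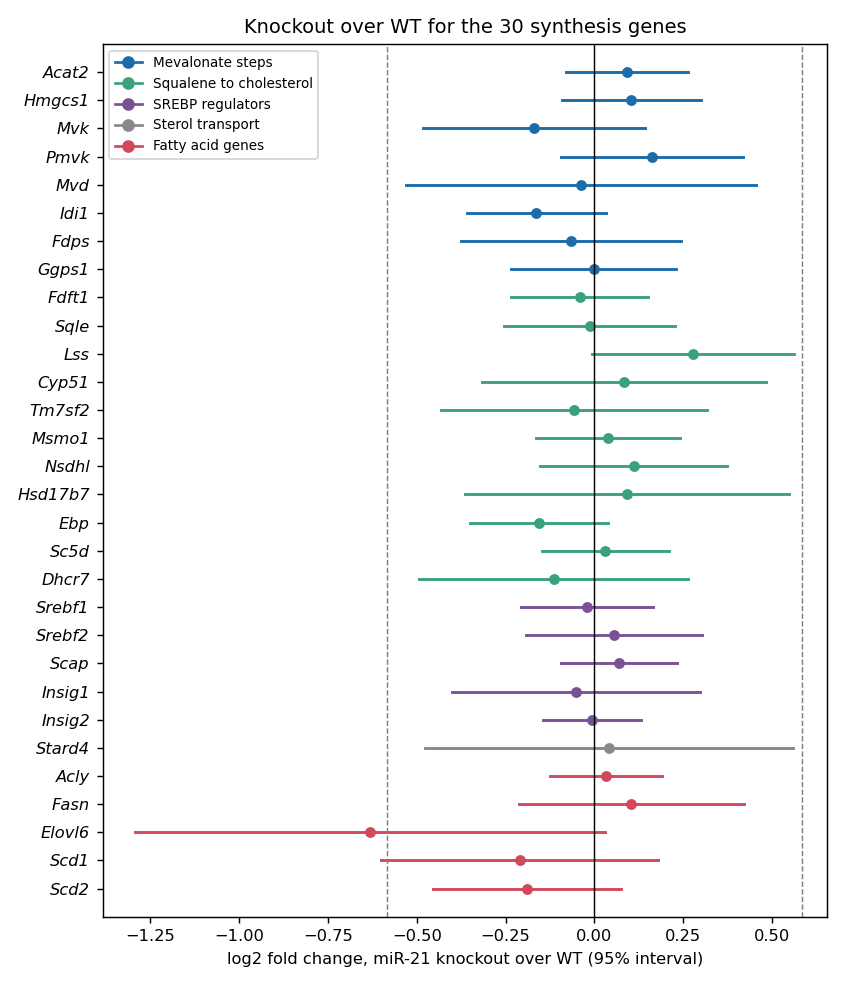
Log2 fold change of each member, knockout over WT, with its 95% interval from edgeR and colours for the role of the gene. The dashed lines mark a 1.5-fold change in either direction: every interval crosses 0, and the widest is that of Elovl6, from -1.29 to 0.03.

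The first steps of the sterol branch turn acetyl-CoA into isoprenoid units. Hmgcs1, the HMG-CoA synthase (chromosome 13, 119690379 to 119708260, mm10), had 51.8, 60.9 and 57.2 CPM in knockout 1, 2 and 3, against 49.5, 56.7 and 52.0 CPM in WT 1, 2 and 3. The groups overlapped, at a log2 fold change of 0.10 ± 0.08 (SE) and an interval of -0.09 to 0.30. Acat2, the cytosolic thiolase that makes acetoacetyl-CoA, had 26.0, 25.1 and 26.0 CPM in knockout libraries, against 22.2, 25.0 and 25.1 CPM in WT libraries. The lowest knockout library stood just above the highest WT library, and the log2 fold change was 0.09 ± 0.07 (adjusted p = 0.872). Acat2 has a close copy, Acat3, so its estimated counts are uncertain.

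The kinases and the decarboxylase that follow had values on either side of WT, and none passed the test. Mvk, mevalonate kinase, had 7.43, 10.1 and 8.79 CPM in knockout libraries, against 9.15, 10.4 and 10.1 CPM in WT libraries, a log2 fold change of -0.17 ± 0.13. Pmvk, the kinase of the next step, had 10.4, 10.8 and 9.48 CPM in knockout libraries, against 8.46, 8.74 and 10.1 CPM in WT libraries, a log2 fold change of 0.16 ± 0.11. Groups overlapped in both kinases, through knockout 2 in Mvk and WT 3 in Pmvk. Mvd, the decarboxylase that makes isopentenyl diphosphate, was the least precise gene of these steps, with WT 2 at 3.73 CPM and WT 1 at 2.32 CPM around knockout values of 2.75 to 2.98 CPM.

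Idi1, which isomerises isopentenyl diphosphate, was the only member whose knockout libraries all lay below the WT libraries. It had 15.7, 15.6 and 15.8 CPM in knockout 1, 2 and 3, against 18.2, 18.6 and 15.9 CPM in WT 1, 2 and 3. WT 3 stood next to the knockout libraries and apart from WT 1 and WT 2. The log2 fold change was -0.16 ± 0.08, with an interval of -0.36 to 0.03 and an edgeR adjusted p of 0.859. Fdps, the farnesyl diphosphate synthase, had 13.3 ± 1.64 CPM in knockout aortas and 13.9 ± 1.68 CPM in WT aortas (SD, n = 3 each). Ggps1 had 73.7 ± 7.10 CPM in knockout aortas and 73.8 ± 7.09 CPM in WT aortas, a log2 fold change of -0.0016 ± 0.10.

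The steps committed to sterols start at squalene. Fdft1, squalene synthase, had 22.2 ± 1.68 CPM in knockout aortas and 22.9 ± 1.2 CPM in WT aortas. Sqle, the squalene epoxidase and a rate-controlling enzyme of the route, had 20.9, 20.96 and 18.1 CPM in knockout 1, 2 and 3, against 21.4, 21.2 and 17.98 CPM in WT 1, 2 and 3. Knockout 3 and WT 3 were the lowest of their groups by a like amount, and the log2 fold change was -0.01 ± 0.10, with an interval of -0.25 to 0.23. In both genes the group means differed by less than the spread between replicates.

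Lss, the lanosterol synthase that folds the squalene chain into the first sterol (chromosome 10, 76531588 to 76557138), had the smallest p of all members. It had 15.04, 14.5 and 17.95 CPM in knockout 1, 2 and 3, against 11.5, 13.3 and 14.3 CPM in WT 1, 2 and 3. The groups did not overlap, with knockout 2 and WT 3 next to each other and knockout 3 highest. The means were 15.8 ± 1.85 CPM in knockout aortas and 13.0 ± 1.39 CPM in WT aortas, and the log2 fold change was 0.28 ± 0.12 (SE). Its interval ran from -0.01 to 0.56, the unadjusted edgeR p was 0.0545 and the adjusted p 0.835, so the difference did not pass. The fold change kept its sign without each library in turn, between 0.18 and 0.35.

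The demethylation and isomerisation steps after lanosterol showed no common direction. Cyp51, the lanosterol demethylase, had 19.7, 27.9 and 20.3 CPM in knockout 1, 2 and 3, against 24.5, 21.4 and 18.3 CPM in WT 1, 2 and 3, with knockout 2 alone above WT 1. Msmo1, a methylsterol oxidase, had 31.03 ± 2.71 CPM in knockout aortas and 30.2 ± 1.87 CPM in WT aortas, and its partner Nsdhl 10.4 ± 0.821 CPM in knockout aortas and 9.64 ± 0.906 CPM in WT aortas. Hsd17b7, a sterol ketone reductase, had 7.34 ± 1.18 CPM in knockout aortas and 6.90 ± 1.35 CPM in WT aortas. Each of these genes overlapped between groups. Tm7sf2, a sterol reductase gene, had 5.34 ± 0.862 CPM in knockout aortas and 5.57 ± 0.455 CPM in WT aortas.

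Ebp, the isomerase that shifts a ring double bond, had 19.5, 16.96 and 17.5 CPM in knockout 1, 2 and 3, against 20.2, 19.1 and 20.9 CPM in WT 1, 2 and 3. Knockout 1 lay among the WT libraries and the other knockout libraries lay below them. The log2 fold change was -0.16 ± 0.08, with an interval of -0.35 to 0.04 and an adjusted p of 0.859. Dhcr7, which makes cholesterol from 7-dehydrocholesterol, had 6.68, 5.36 and 5.97 CPM in knockout 1, 2 and 3, against 5.72, 7.73 and 6.04 CPM in WT 1, 2 and 3, a log2 fold change of -0.11 ± 0.16. Stard4, which carries cholesterol between membranes, had 2.38 ± 0.228 CPM in knockout aortas and 2.33 ± 0.501 CPM in WT aortas (SD, n = 3 each).

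The median coefficient of variation within groups was lower for the 5 sensor genes (6.49%) than for sterol enzymes (8.89%) or fatty acid genes (13.4%). Insig1 (14.8%) and Srebf2 (10.6%) lay above the sterol median. Srebf1 had 161.9, 137.8 and 143.9 CPM in knockout 1, 2 and 3, against 148.2, 155.8 and 145.7 CPM in WT 1, 2 and 3, a log2 fold change of -0.02 ± 0.08. Srebf2 had 77.3, 87.7 and 85.8 CPM in knockout libraries, against 76.2, 92.7 and 72.5 CPM in WT libraries, a log2 fold change of 0.06 ± 0.11. The knockout libraries of Srebf2 lay within the WT range, while for Srebf1 knockout 1 lay above that range and knockout 2 and 3 below it. The intervals of -0.21 to 0.17 for Srebf1 and -0.19 to 0.30 for Srebf2 hold no change as large as 1.5-fold. These counts sum the isoforms of Srebf1, so SREBP-1a and SREBP-1c cannot be told apart, and message levels say nothing of cleavage.

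Scap, which escorts the SREBPs, had 62.3 ± 3.77 CPM in knockout aortas and 59.3 ± 2.94 CPM in WT aortas. Insig2, the anchor that depends less on the SREBPs than Insig1 does, was the most even member, with 82.6, 82.5 and 86.3 CPM in knockout libraries, against 87.4, 84.8 and 80.4 CPM in WT libraries. Its highest library was 1.09-fold above its lowest. Insig1, the anchor that is also a target of the SREBPs, varied more, with 22.5, 19.9 and 17.6 CPM in knockout 1, 2 and 3, against 16.7, 21.7 and 23.5 CPM in WT 1, 2 and 3. The groups of Insig1 overlapped, with WT 3 highest and WT 1 lowest, and its log2 fold change was -0.05 ± 0.15.

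No gene of the fatty acid branch passed the test. Acly, the citrate lyase that supplies cytosolic acetyl-CoA to both branches, had 106.5, 119.9 and 113.9 CPM in knockout 1, 2 and 3, against 108.6, 115.3 and 108.9 CPM in WT 1, 2 and 3. Fasn, the fatty acid synthase, had 80.6, 67.9 and 72.0 CPM in knockout libraries, against 76.1, 55.1 and 73.8 CPM in WT libraries, with WT 2 apart from the rest. The log2 fold changes were 0.03 ± 0.07 for Acly and 0.10 ± 0.13 for Fasn, and the groups overlapped in both.

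Elovl6, the elongase that makes stearate from palmitate (chromosome 3, 129532355 to 129638495), had the largest fold change of the members. It had 3.38, 2.29 and 2.54 CPM in knockout 1, 2 and 3, against 5.93, 3.36 and 3.45 CPM in WT 1, 2 and 3. WT 1 stood apart from the other 5 libraries, and knockout 1 lay just above WT 2, so the groups overlapped. The means were 2.74 ± 0.570 CPM in knockout aortas and 4.25 ± 1.46 CPM in WT aortas, and the log2 fold change was -0.63 ± 0.28 (SE). The interval of -1.29 to 0.03 included 0, and the edgeR p was 0.0586 unadjusted and 0.835 adjusted. Without WT 1 the log2 fold change was -0.32, and without knockout 1 it was -0.81.

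Scd1 and Scd2 are neighbouring desaturase genes on chromosome 19 (44394451 to 44407709 and 44293676 to 44306864) that put the first double bond into stearate and palmitate. Scd1 had 99.2, 69.5 and 96.4 CPM in knockout 1, 2 and 3, against 119.8, 92.5 and 94.5 CPM in WT 1, 2 and 3. Scd2 had 258, 216 and 218 CPM in knockout libraries, against 287, 271 and 232 CPM in WT libraries. In both genes WT 1 was the highest of the 6 libraries and knockout 2 the lowest, and the groups overlapped, since knockout 1 lay above at least 1 WT library. The log2 fold changes were -0.21 ± 0.16 for Scd1 and -0.19 ± 0.11 for Scd2, with edgeR adjusted p of 0.872 and 0.859. Leaving out 1 library moved that of Scd1 between -0.31 (without knockout 1) and -0.06 (without knockout 2) and that of Scd2 between -0.28 and -0.12. The copies are alike in sequence, to a degree not computed here, so how reads were split between them is uncertain. Their estimated counts were not whole numbers, which held for 18 of the 30 members and does not show such a split.

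**Figure D3:**
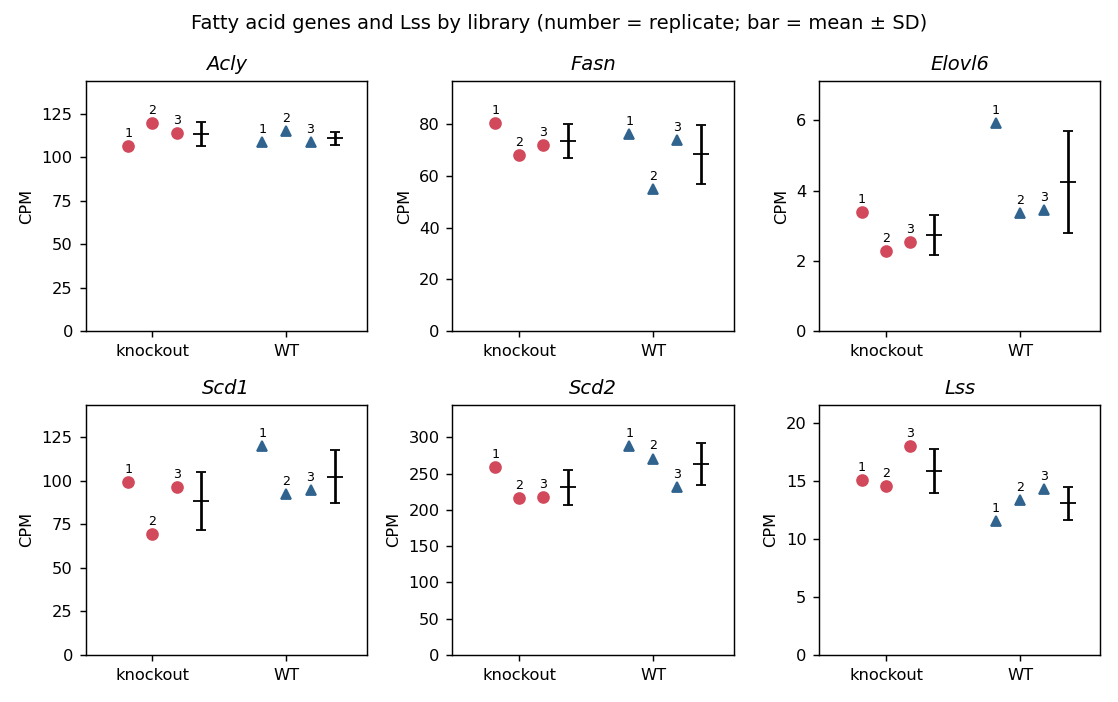
CPM of the 5 fatty acid genes and of Lss in each library, knockout circles left of WT triangles, with the replicate number above each point and the mean ± SD beside each group. Elovl6 of WT 1, at 5.93 CPM, lies above all other libraries, while the groups of Lss do not overlap (14.5 to 17.95 CPM in the knockout, 11.5 to 14.3 CPM in WT).

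Set side by side, the median log2 fold change was -0.19 for the 5 fatty acid genes and -0.0016 for the 19 sterol enzymes, beside -0.0022 for all genes tested. The sterol median was the value of Ggps1. The difference, sterol minus fatty acid, was 0.19. It was 0.02 without knockout 2 and 0.34 without knockout 1. With Acly, Fasn and Elovl6 alone as the fatty acid branch it was -0.03. With Srebf1 added to the fatty acid branch and Stard4, both Insig genes, Srebf2 and Scap added to the sterol branch it was 0.12. No test of the difference between the branches was made, since the members had been chosen with results known.

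By library, the mean centred log2 CPM of the fatty acid genes was 0.06, -0.21 and -0.08 in knockout 1, 2 and 3, against 0.28, -0.04 and -0.003 in WT 1, 2 and 3. That of the sterol enzymes was -0.05, 0.07 and -0.01 in knockout libraries, against -0.03, 0.08 and -0.06 in WT libraries. Library 1 of both groups was thus higher in the fatty acid than in the sterol branch, and library 2 of both groups was the other way round. The fatty acid mean was -0.08 ± 0.13 in knockout aortas and 0.08 ± 0.17 in WT aortas (SD, n = 3 each), a difference of -0.16 that is about as large as these spreads. The sterol mean was 0.0046 ± 0.06 in knockout aortas and -0.0046 ± 0.07 in WT aortas, a difference of 0.01.

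Marker lists for cell types of the wall and of the fat around it also varied between libraries. The mean centred log2 CPM of the fibroblast markers was 0.65, -0.72 and -0.45 in knockout 1, 2 and 3, against 0.76, -0.55 and 0.31 in WT 1, 2 and 3. That of the smooth muscle markers was -0.20, 0.19 and 0.15 in knockout libraries, against -0.25, 0.15 and -0.05 in WT libraries. Knockout 1 and WT 1 were the highest libraries of their groups in both the fatty acid genes and the fibroblast markers and the lowest in the smooth muscle markers. The macrophage markers had 0.75, 0.31 and -0.66 in knockout libraries, against 0.60, -0.64 and -0.37 in WT libraries. The endothelial markers had 0.33, -0.06 and -0.32 in knockout libraries, against 0.65, -0.28 and -0.32 in WT libraries. By this mean they were also highest in knockout 1 and WT 1, but Cdh5, Kdr, Tie1 and Emcn stood below 1 CPM in most libraries. Their summed CPM, led by Pecam1, was 60.0, 69.8 and 65.2 in knockout libraries, against 67.2, 64.1 and 60.9 in WT libraries. By that sum knockout 1 was the lowest knockout library and WT 1 the highest WT library. The 3 adipocyte markers had -0.13, 0.10 and 0.22 in knockout libraries, against 0.02, -0.14 and -0.08 in WT libraries. In this list knockout 1 was the lowest knockout library and WT 1 the highest WT library. In the fatty acid genes both were the highest of their groups. The part of these cell types in the branch values was not tested.

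**Figure D4:**
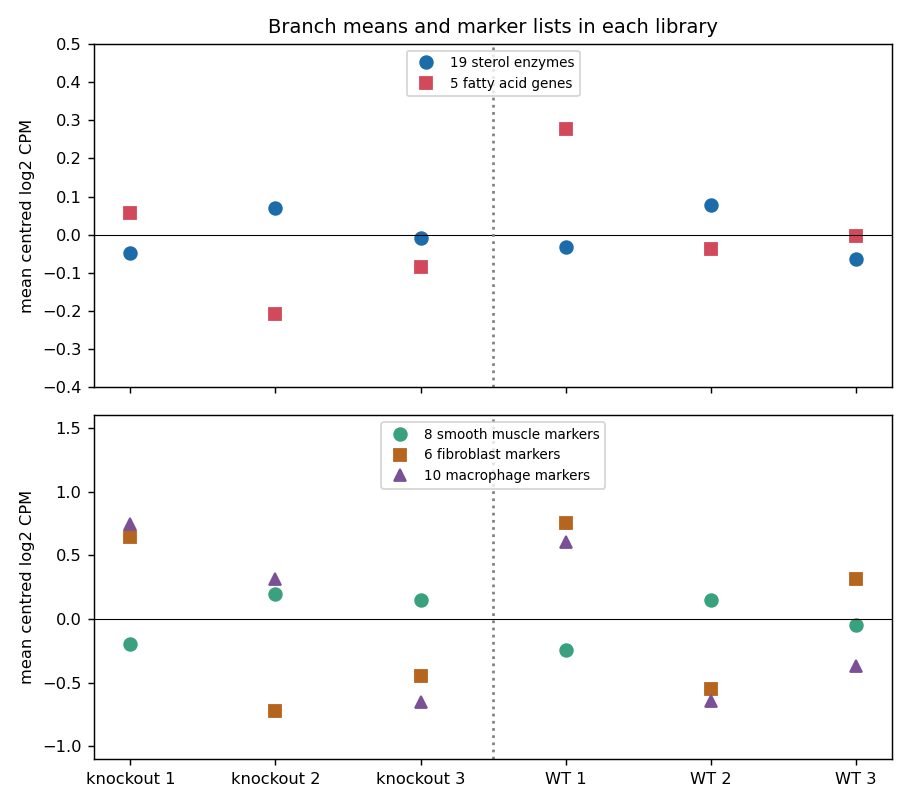
Mean centred log2 CPM (pseudocount 0.5) in each library, knockout libraries left of WT libraries, for the 2 branches (upper panel) and for smooth muscle, fibroblast and macrophage marker lists (lower panel, wider axis). The fatty acid genes range from -0.21 in knockout 2 to 0.28 in WT 1, while the sterol enzymes stay between -0.06 and 0.08.

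Spread within groups also differed by role. The median coefficient of variation within groups was 13.4% for the 5 fatty acid genes, 8.89% for the 19 sterol enzymes and 6.49% for the 5 sensor genes. For the 11717 tested genes within the same range of mean CPM it was 8.67%. Elovl6 had the highest value of the members (28.4%) and Insig2 the lowest (3.50%). This is a description, with no test.

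Other genes of the same pathways were read from a list of 41 that leaves out the members. Of these, 40 could be tested, and 0 passed at an adjusted p under 0.05 in edgeR, as did 0% of all genes. Over all genes 49.4% had a log2 fold change above 0, while here 11 (27.5%) lay above and 29 below, with a median of -0.05. At an unadjusted p under 0.05, 1 was higher and 4 were lower in the knockout, where the share over all genes was 3.95% higher and 2.01% lower. The higher one was Acacb, the acetyl-CoA carboxylase at the mitochondrial surface, with 9.95, 8.51 and 9.48 CPM in knockout libraries, against 7.36, 7.34 and 7.65 CPM in WT libraries. Its log2 fold change was 0.32 ± 0.10 and its edgeR adjusted p 0.793, and the groups did not overlap.

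Among the lower ones was Mid1ip1, which promotes polymerisation of acetyl-CoA carboxylase, with 85.0, 81.1 and 91.6 CPM in knockout libraries, against 96.0, 99.2 and 101.9 CPM in WT libraries. Its log2 fold change was -0.21 ± 0.07 (adjusted p = 0.793). Aacs, which makes acetoacetyl-CoA from ketone bodies for lipid synthesis, had -0.16 ± 0.06, Rnf145, a sterol-regulated ubiquitin ligase, -0.18 ± 0.07, and Pdss1, which makes the side chain of coenzyme Q, -0.44 ± 0.18, each with an adjusted p of 0.830. In all 4 genes every knockout library lay below every WT library, which held for 8 of the 40 genes, against 5.6% of all genes. Among the remaining sterol genes of that list, Acat3 was highest at 0.06 ± 0.22 and Tmem97, a sterol-responsive membrane protein gene, lowest at -0.22 ± 0.16. The sterol, fatty acid, sensor and isoprenoid sublists had median log2 fold changes of -0.03, -0.07, -0.05 and -0.04.

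Some member counts are uncertain because of their surroundings. Of the 30 members, 10 overlap another gene of the table, and the strand setting of the counting is not given in the sources used here. Fdft1, with a mean of 1463 estimated counts, overlaps the lysosomal protease gene Ctsb on the opposite strand, with 90741. Mvd, with 186, overlaps Gm20388 on the opposite strand, with 11273. Tm7sf2, with 345, overlaps Vps51 on the same strand, with 2441. Estimated counts were within 0.05 of a whole number in all 6 libraries for 12 members, among them Mvd, Sqle, Msmo1, Ebp, Sc5d and Srebf2. This did not hold for Fdft1 or Tm7sf2.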

How the data were processed

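The table deposited by the authors holds estimated counts per gene for 6 libraries, not normalized. The submitters' processing notes list the genome build mm10 and the tools STAR 2.6 and DESeq2 without saying what each tool did. The counting program, its annotation and its strand setting are not given. Per the labels' protocols, libraries were made with an Illumina TruSeq RNA kit. Columns were matched to samples by their code, and 0 columns were left over.

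Counts were rounded to whole numbers, filtered with filterByExpr (16654 of 22956 genes were kept) and scaled with TMM. Differences were tested with edgeR 4.0.16 in R 4.3.3 (quasi-likelihood fit, robust setting). P-values are two-sided and were adjusted by the Benjamini-Hochberg method over all genes tested, with a threshold of 0.05. Intervals are at 95%. Alternatives were DESeq2 1.42.0, limma 3.58.1 (voom with sample weights), other scalings and filters, the replicate number as a block, and leaving out each library. The procedure was tested on simulated data. Replicates differed beyond counting noise (mean chi-square 27.6 to 98.6 per gene), so none was merged. Exon lengths and 3′ untranslated regions came from GENCODE M21 (GRCm38), where 21548 genes matched by position once the table's end was lowered by 1, 1347 by symbol, and 61 did not match. Exon lengths join all annotated transcripts, so levels per length are approximate. Branch means used log2 of CPM plus 0.5.

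The 30 members, the role lists, the 41 other pathway genes and the markers were chosen with earlier results of these data known. All members are named, and of the other pathway genes those with an unadjusted p under 0.05, or else the highest and lowest of a list.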

Additional observations from a re-analysis of the deposited data

How the results depend on the processing

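The count of members called was 0 under every alternative, an FDR of 0.1 included. At an unadjusted p under 0.05 it was 1 without a low-count filter and 1 with DESeq2 (Elovl6 in both), 3 with limma-voom (Ebp, Elovl6 and Lss) and 0 to 3 with 1 library left out. Over all genes, the count called was 0 with all libraries and no block in edgeR, 73 with DESeq2, 1 with the replicate block and 1 without knockout 1. The replicate number as a block gave 3 members at an unadjusted p under 0.05 (Elovl6, Lss and Scd2), with adjusted p of at least 0.241. Of all 16654 genes, 1189 were higher and 918 lower at that p with the block, against 658 and 335 without it. The like counts were 1128 and 779 of 16654 with limma-voom, and 647 and 356 of 16654 with DESeq2. They were 751 and 429 of 22917 without a low-count filter. They were 769 and 956 of 17158 without knockout 1, and 491 and 233 of 16990 without WT 3. The replicate numbers were not taken to pair the libraries, since deviations of same-numbered libraries correlated at 0.38, 0.45 and -0.02. Libraries 1 and 2 of both groups correlated best with their own number, and library 3 of neither group did. Structure shared by number is thus not excluded. Leaving out 1 library moved the sterol median between -0.065 and 0.071 (the higher without WT 2), the fatty acid median between -0.28 and -0.064, their difference between 0.024 (without knockout 2) and 0.34 (without knockout 1), and the number of members above 0 between 9 (without WT 3) and 20 (without WT 2). Without Scd1 and Scd2 the difference was -0.034. With limma-voom the sign turned for Fdps (0.061), Ggps1 (0.047), Sqle (5e-04), Tm7sf2 (0.039) and Insig2 (0.013). With 1 library left out the sign turned for 18 members, whose log2 fold changes ran from -0.18 to 0.15 for Mvd, from -0.15 to 0.029 for Fdps, from -0.073 to 0.071 for Ggps1, from -0.10 to 0.0011 for Fdft1, from -0.095 to 0.055 for Sqle, from -0.096 to 0.19 for Cyp51, from -0.16 to 0.059 for Tm7sf2, from -0.035 to 0.080 for Msmo1, from -0.066 to 0.22 for Hsd17b7, from -0.035 to 0.074 for Sc5d, from -0.20 to 0.023 for Dhcr7, from -0.095 to 0.027 for Srebf1, from -0.017 to 0.17 for Srebf2, from -0.18 to 0.052 for Insig1, from -0.041 to 0.022 for Insig2, from -0.14 to 0.17 for Stard4, from -0.010 to 0.071 for Acly and from -0.032 to 0.19 for Fasn. The cause was not tested.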
